A study of Mus musculus with 11 samples.

Results

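The tenascins are a family of large secreted glycoproteins of the extracellular matrix, and the anthrax toxin receptors are cell surface proteins that bind matrix components. All probes of the bead array whose platform symbol was Tnn, Tnc, Tnxb, Tnr, Antxr1 or Antxr2 were taken, which gave 20 of the 45281 probes on the array for 6 of its 19057 named genes: 2 for Tnn, 7 for Tnc, 6 for Tnxb, 1 for Tnr, 2 for Antxr1 and 2 for Antxr2. The genes were picked with the comparison of Cldn16 -/- and Cldn16 +/+ kidneys in view, in which 1 probe of Tnn and 1 of Antxr1 stood out, so the values of that comparison are given as a description.

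Kidney RNA of 11 female mice aged 8 weeks was hybridised to Illumina mouse arrays, 1 array per mouse. There were 4 Cldn16 +/+ mice (WT), 3 Cldn16 +/- mice (Het) and 4 Cldn16 -/- mice (KO). No treatment is named, and the mice came from the F2 of 129S7/SvEvBrd-Hprtb-m2 with 1 backcross to C57BL/6N, so that every group carried a mixed Sv129 and C57BL/6N background. The sources used here do not describe the Cldn16 allele itself. Claudin-16 belongs to the tight junctions of the thick ascending limb, through which magnesium and calcium leave the tubule. The poles of the kidneys had been cut off before freezing, so the samples were pieces of whole organ with all their cell types. In such tissue, fewer cells of a type and less RNA per cell cannot be told apart.

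Tenascins are made mostly by mesenchymal cells, are abundant where tissue is built or repaired, and alter how cells attach to fibronectin and signal through integrins. Tenascin-W, encoded by Tnn, is known in the mouse from bone, smooth muscle and kidney. Tenascin-C (Tnc) appears in development, wounds and tumour stroma, tenascin-X (Tnxb) organises collagen fibrils in loose connective tissue, and tenascin-R (Tnr) belongs to the nervous system. Antxr1 (also called TEM8) binds collagens, Antxr2 (also called CMG2) binds laminin and type IV collagen, and both carry the protective antigen of anthrax toxin into cells.

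Levels are log2 intensities after background correction and normalization. An offset of 16 was added before the logarithm, so a difference of 1 is a doubling of the intensity with that offset. Differences of dim probes are therefore smaller on this scale than in the RNA. A probe is called above background on an array where its deposited detection p was under 0.01. Across arrays, the lowest level of any probe above background lay between 5.07 and 5.19. The tests took in every probe that had a detection p under 0.05 on 3 or more arrays, 22856 in all.

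Between 41.6% and 43.6% of probes were above background on an array, and arrays correlated with each other at 0.981 to 0.991 over the tested probes. The arrays lay on 2 slides. Slide 1 held WT 1, WT 2, Het 1, Het 2, KO 1 and KO 2, and slide 2 held the other arrays. The 4 mice taken on postnatal day 59 (WT 1, WT 2, Het 1 and KO 1) were all on slide 1, and the other 7 were taken on day 58. The tested markers of the proximal tubule, the thick ascending limb and the distal convoluted tubule were at high levels on every array, as the tissue label states. Calb1, also listed for the distal convoluted tubule, had no tested probe. The 1 probe of Cldn16 read 9.50 ± 0.23 (SD, n = 4) in WT kidneys. It read 9.33 ± 0.06 (n = 3) in Het kidneys and 8.98 ± 0.33 (n = 4) in KO kidneys. Where it binds relative to the targeted part is not stated, so it does not check the genotypes.

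Of the 20 probes, 9 were tested, and they stood for 5 of the 6 genes: 1 probe of Tnn, 2 of Tnc, 3 of Tnxb, 2 of Antxr1 and 1 of Antxr2. The other 11 probes did not pass the filter on dim probes, and 10 of them had a detection p under 0.05 on no array. The remaining one, ILMN_2492671 of Tnxb, had it on 2 arrays. A gene's tested and untested probes are different sequences, so their levels are not set against each other. Neither the probe sequences nor their target exons are known from the sources used here, and a probe without signal does not show that its gene is silent.

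The promoter windows of Tnn and Antxr2 are shown because both genes had WT and KO kidneys that did not overlap. RefSeq windows of 300 bases, from 250 before to 50 after the transcript start (GRCm38.p6), were at hand for 5 of the 6 genes, and Antxr1 was not among them. The Tnn window lies at chr1:160153526-160153825 and the Antxr2 window at chr5:98030968-98031267, both on the minus strand. Capitals mark matches to TATAAA on the strand shown and to GGGCGG on either strand.
Tnn: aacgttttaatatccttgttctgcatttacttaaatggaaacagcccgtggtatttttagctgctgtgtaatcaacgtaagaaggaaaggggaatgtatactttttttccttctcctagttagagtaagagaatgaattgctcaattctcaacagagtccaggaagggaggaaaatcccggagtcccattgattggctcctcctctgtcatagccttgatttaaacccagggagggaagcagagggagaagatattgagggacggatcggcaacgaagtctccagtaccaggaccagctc
Antxr2: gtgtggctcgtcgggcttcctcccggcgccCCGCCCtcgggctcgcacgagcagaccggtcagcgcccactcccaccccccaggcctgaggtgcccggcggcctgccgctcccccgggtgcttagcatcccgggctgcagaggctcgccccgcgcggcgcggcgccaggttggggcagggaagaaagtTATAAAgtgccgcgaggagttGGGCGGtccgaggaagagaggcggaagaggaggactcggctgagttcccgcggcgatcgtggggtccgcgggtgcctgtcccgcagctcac

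The windows differed in base composition. The Tnn window had a GC content of 44.3% and 7 CpG dinucleotides, and the Antxr2 window 73% and 35, against a median of 52.7% and 7 over 32851 mouse promoter windows of this length. TATAAA, the TATA box, occurred 1 time in the Antxr2 window, with its first base at -62 relative to the transcript start, and in 8.32% of all windows. GGGCGG, the GC box, occurred 2 times there and in 35.7% of all windows. The Tnn window held neither, nor TGANTCA, the AP-1 element, which was sought on both strands and is present in 7.81% of all windows. These letters overlap no other of the motifs sought, and neither their presence nor their absence says whether a factor binds there.

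Tnn was near or below background in kidneys with 2 intact Cldn16 alleles and above background in every kidney that carried the targeted allele. Probe ILMN_2896200 read 4.87, 4.45, 4.98 and 4.90 in the 4 WT kidneys (WT 1 to WT 4). It read 5.31, 5.81 and 5.67 in the 3 Het kidneys and 6.71, 6.26, 5.68 and 6.36 in the 4 KO kidneys. No WT kidney reached the lowest Het kidney, whereas the lowest KO kidney, KO 3, lay among the Het kidneys. The detection p was under 0.01 on 0 of 4 WT, 3 of 3 Het and 4 of 4 KO arrays, so the probe passed the filter on dim probes mostly through the genotypes in which it is high.

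The mean level of Tnn was 4.80 ± 0.24 (SD) over the 4 WT kidneys, 5.60 ± 0.26 over the 3 Het kidneys and 6.25 ± 0.43 over the 4 KO kidneys. KO exceeded WT by 1.45 ± 0.20 (SE of the linear model). Because WT was not above background on any array, the fold was estimated with the WT level replaced on each array by the lowest level above background. This estimate was 2.15-fold. It allows for WT levels under background but not for sampling error, so it is not a lower limit of the fold. Without background correction the difference was 0.77, and with an offset of 50 it was 0.84. The second Tnn probe, ILMN_2416178, was dim on all 11 arrays, between 4.24 and 4.39, with group means of 4.32, 4.31 and 4.32, and tells nothing on the gene's transcripts here.

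**Figure D1:**
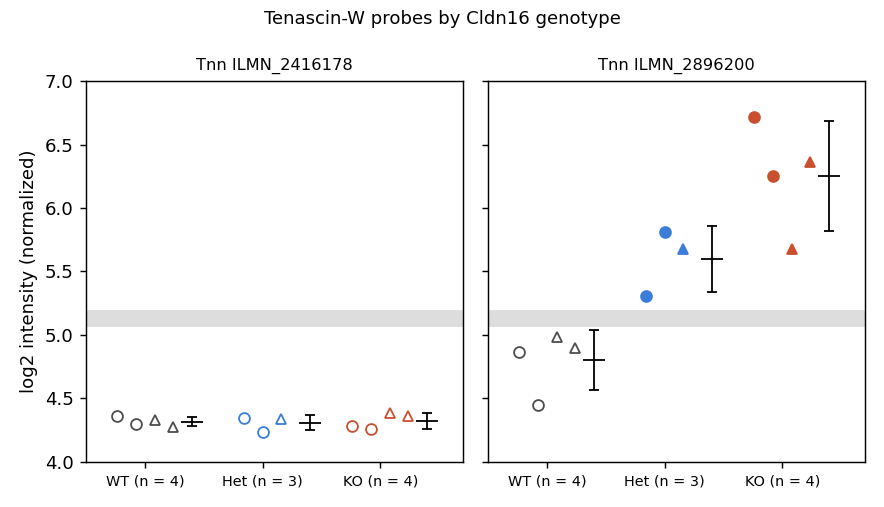
Log2 intensity of the 2 Tnn probes on each array by Cldn16 genotype (4 WT, 3 Het, 4 KO). Circles are slide 1 and triangles slide 2, filled symbols are arrays with a detection p under 0.01, the bar is the mean with its SD, and the grey band (5.07 to 5.19) is the range over arrays of the lowest level above background. All WT points of ILMN_2896200 lie under the band and all Het and KO points above it.

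The Het mean of Tnn lay between the other 2 means. Het exceeded WT by 0.80 ± 0.22, which did not pass the threshold over all tested probes (adjusted p = 0.661 in limma). With the WT level replaced as above, the estimate was 1.36-fold, which again leaves out sampling error and is not a lower limit. In the exact two-sided permutation test over arrays the p for Het against WT was 0.0571, the smallest that 3 against 4 arrays allow. Antxr1 ILMN_1226183 and Antxr2 ILMN_1214412 reached the same p in Het against WT. KO exceeded Het by 0.66 ± 0.22 (adjusted p = 0.889 in limma, p = 0.114 in the exact permutation test). Both comparisons share arrays with KO against WT, on which the gene was picked, so they add no independent support.

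A measure whose value is not set by picking genes on KO against WT is how far Het lay from the midpoint between the WT and KO means. With 4 WT and 4 KO arrays its estimate is independent of their difference in the model. Its error rests on the same spread as that comparison, so the picking can make its intervals too narrow. For Tnn it was 0.07 ± 0.19, with a 95% interval of -0.34 to 0.48 (adjusted p = 0.999 in limma). Since WT was not above background for Tnn, this midpoint rests on a WT level that is only a bound, and with an offset of 50 the departure changed sign, to -0.0063. It therefore does not say how near Het lay to either of the other genotypes.

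Antxr1 gave an ordered picture with one of its probes. ILMN_1226183 read 5.78, 5.59, 5.67 and 5.87 in the WT kidneys. It read 6.24, 6.17 and 6.13 in the Het kidneys and 6.44, 6.44, 6.69 and 6.29 in the KO kidneys. Every KO kidney was above every Het kidney and every Het kidney above every WT kidney, and the probe was above background on all 11 arrays. No other member had this full order, which 13 of the tested probes, 0.0569%, showed in this direction. All KO kidneys were above all WT kidneys in 841 tested probes. Antxr1 was picked on that comparison, which the full order includes, so nothing is read from the share.

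The means were 5.73 ± 0.12 (SD) for the 4 WT, 6.18 ± 0.06 for the 3 Het and 6.47 ± 0.16 for the 4 KO kidneys. KO exceeded WT by 0.74 ± 0.11, or 1.67-fold. Without background correction the difference was 0.44. Het exceeded WT by 0.45 ± 0.12 (adjusted p = 0.661 in limma) and KO exceeded Het by 0.28 ± 0.12 (adjusted p = 0.889 in limma), and neither passed the threshold. As for Tnn, both comparisons share arrays with KO against WT, on which the gene was picked, so they add no independent support. Het departed from the midpoint by 0.08 ± 0.11, with a 95% interval of -0.15 to 0.31 (adjusted p = 0.999 in limma).

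The second Antxr1 probe, ILMN_1229643, had another pattern. Its levels were 6.59, 6.45, 6.87 and 6.60 in the WT kidneys, 6.68, 6.55 and 6.31 in the Het kidneys and 6.90, 7.10, 6.88 and 6.86 in the KO kidneys. Het and WT kidneys overlapped, and KO 4 lay just under WT 3. The means were 6.63 ± 0.18 (SD, n = 4), 6.51 ± 0.19 (n = 3) and 6.94 ± 0.11 (n = 4).

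For this probe KO exceeded WT by 0.31 ± 0.12, smaller than with ILMN_1226183, and Het lay below WT, with a difference of -0.11 ± 0.13 (limma adjusted p = 0.916) that turned positive (0.012) under a median shift per array. KO exceeded Het by 0.42 ± 0.13 (adjusted p = 0.889 in limma), with no overlap between these groups. The departure from the midpoint was -0.27 ± 0.12, with a 95% interval of -0.52 to -0.02, and did not pass the threshold over all probes (unadjusted p = 0.0384, adjusted p = 0.999, both from limma). The 2 Antxr1 probes correlated over the 11 arrays at r = 0.52 (rho = 0.67), and at 0.15 after the genotype means were taken out. The gene thus had a probe in which all Het kidneys lay above all WT kidneys and one in which they did not.

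Antxr2 differed little between genotypes, and none of its differences passed the threshold over all probes. ILMN_1214412 read 7.02, 7.08, 6.94 and 7.27 in the WT kidneys, 7.36, 7.43 and 7.45 in the Het kidneys and 7.28, 7.31, 7.35 and 7.41 in the KO kidneys. All Het and all KO kidneys were above all WT kidneys, KO 1 by a hair, and Het and KO overlapped. KO exceeded WT by 0.26 ± 0.10, from 7.08 ± 0.14 (SD, n = 4) to 7.34 ± 0.05 (n = 4), with an adjusted p of 0.300 in limma.

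With 7.41 ± 0.05 (n = 3), Het exceeded WT by 0.34 ± 0.11 (adjusted p = 0.661 in limma), and Het exceeded KO, with KO minus Het at -0.07 ± 0.11 (limma adjusted p = 0.967). The departure of Het from the midpoint was 0.20 ± 0.10 and did not pass the threshold (adjusted p = 0.999 in limma). The other Antxr2 probe, ILMN_1236521, had a detection p under 0.05 on no array.

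**Figure D2:**
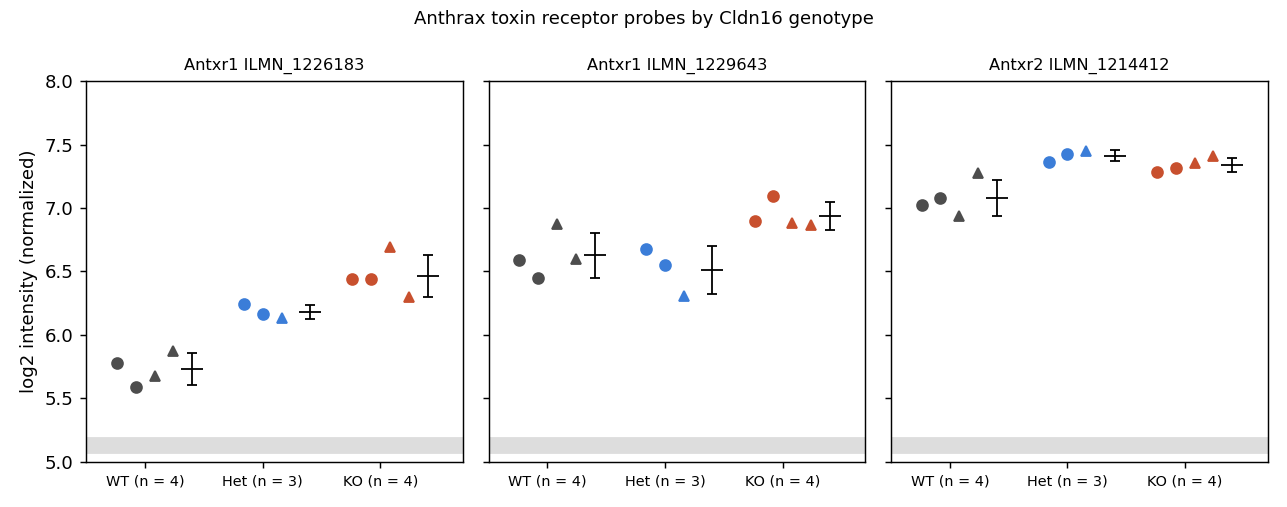
Log2 intensity of the 3 tested Antxr1 and Antxr2 probes on each array by Cldn16 genotype. Circles are slide 1 and triangles slide 2, all symbols are filled because every array was above background, the bar is the mean with its SD, and the grey band is the lowest level above background. The genotypes form 3 steps in Antxr1 ILMN_1226183, while Het lies with WT in ILMN_1229643 and with KO in Antxr2.

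Tnc varied among kidneys of one genotype about as much as between genotypes. ILMN_2463180 read 6.63, 5.83, 6.58 and 6.17 in WT, 6.25, 6.63 and 6.51 in Het and 6.79, 6.98, 5.98 and 6.77 in KO kidneys. ILMN_2463181 read 6.69, 5.86, 6.83 and 6.33 in WT, 6.37, 6.77 and 6.84 in Het and 6.89, 7.43, 6.22 and 7.08 in KO kidneys. The genotypes overlapped in both probes, WT 2 was the lowest kidney and KO 2 the highest.

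KO minus WT was 0.33 ± 0.22 and 0.47 ± 0.25 for the 2 Tnc probes, and Het minus WT 0.16 ± 0.24 and 0.23 ± 0.27 (adjusted p = 0.942 and 0.916 in limma). The 95% interval of KO minus WT for ILMN_2463181 ran from -0.06 to 1.01. Because of the offset, a doubling of the signal is a difference of less than 1 on this scale and lies within the interval. The departure of Het from the midpoint was within 0.01 of 0 in both, with intervals of -0.46 to 0.45 and -0.52 to 0.51. The 2 probes followed each other closely over the arrays (r = 0.97). The other 5 Tnc probes had a detection p under 0.05 on no array.

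Tnc and Tnn were compared over the kidneys. The correlations of Tnn ILMN_2896200 with the Tnc probes were 0.67 and 0.70 over 11 arrays (rho = 0.66 and 0.73), and 0.81 and 0.72 after the genotype means were taken out. KO 3, the KO kidney lowest in Tnn, was also the KO kidney lowest in Tnc. The 4 WT values of Tnn that enter these correlations were not above background, so their order carries no information. The points share array, slide and normalization, and the relation is a description. Tnn and Antxr1 ILMN_1226183 correlated at 0.81 over all arrays but at -0.38 within genotype, KO 3 being the KO kidney highest in Antxr1 and lowest in Tnn.

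Tnxb showed no ordered difference between genotypes in any of its 3 tested probes. ILMN_2440823 read 7.51, 7.07, 7.30 and 7.0 in WT, 7.10, 6.97 and 6.84 in Het and 7.14, 6.79, 7.46 and 6.95 in KO kidneys. ILMN_2444411 ran from 5.42 to 6.65 and ILMN_2973958 from 5.65 to 6.62 over the 11 arrays. WT 1 and KO 3 were the highest of their groups in all 3 probes.

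KO minus WT was -0.13 ± 0.15, -0.06 ± 0.23 and 0.10 ± 0.20 for ILMN_2440823, ILMN_2444411 and ILMN_2973958, all smaller than their errors, and with a median shift per array the first 2 turned positive (0.030 and 0.066). For Het minus WT the values were -0.25 ± 0.17, -0.09 ± 0.25 and 0.06 ± 0.21 (adjusted p = 0.835, 0.976 and 0.981 in limma). The 95% intervals of KO minus WT were -0.47 to 0.20, -0.56 to 0.45 and -0.32 to 0.53. Pairs of the 3 probes correlated at 0.68 to 0.82 over the arrays, so they ranked the kidneys alike.

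**Figure D3:**
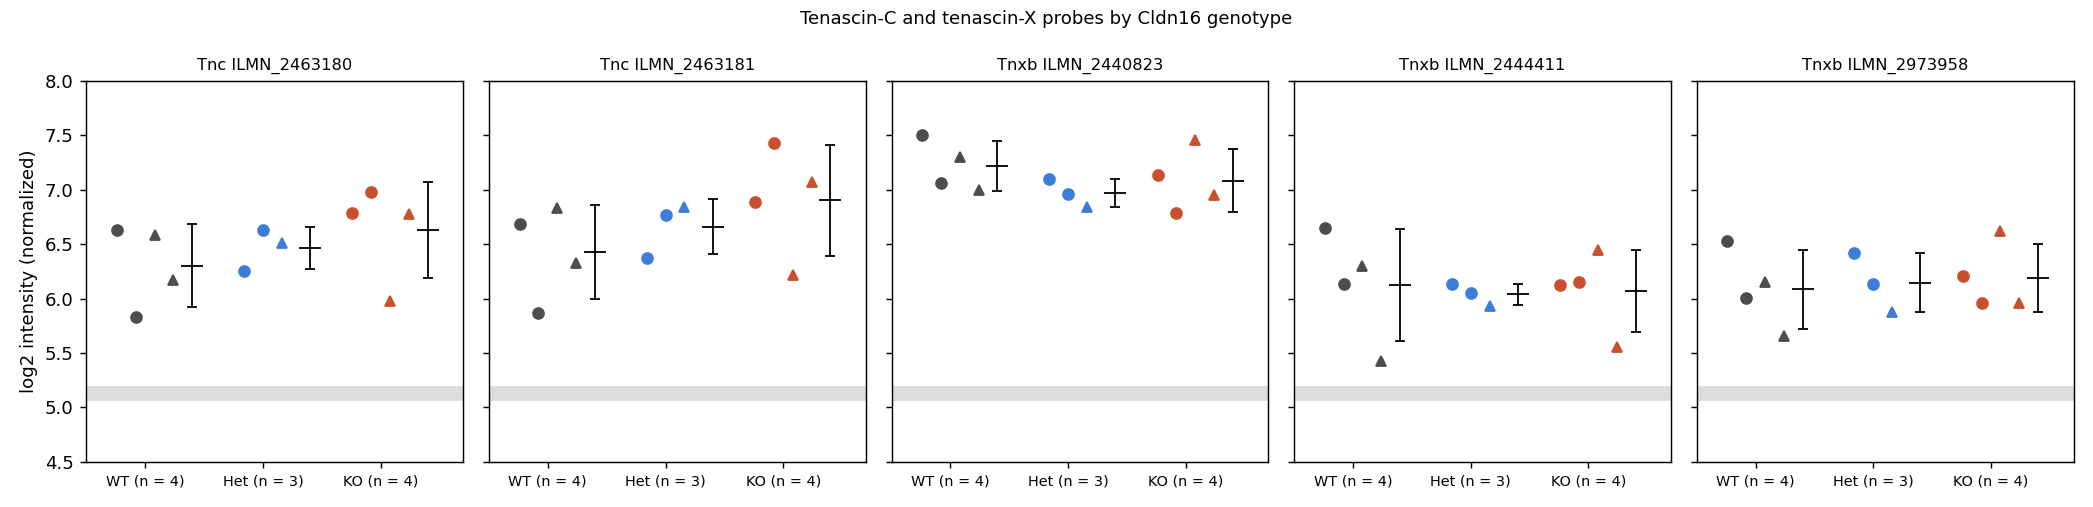
Log2 intensity of the 2 tested Tnc and 3 tested Tnxb probes on each array by Cldn16 genotype, with symbols, bars and band as in the plots of Tnn and of the anthrax toxin receptors. The 3 genotypes overlap in each of the 5 panels.

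Tnr had 1 probe, ILMN_1252176, whose lowest detection p over the arrays was 0.276, so no level of the neural tenascin can be given in these kidneys. Tnr and Tnn are neighbours on mouse chromosome 1 (GRCm38.p6, 159523729 to 159931729 and 160085029 to 160153692), with Gm31493 and 4930523C07Rik between them. Of the genes around them, 4930523C07Rik differed by 0.12 ± 0.15 between KO and WT (adjusted p = 0.775 in limma) and Cop1, a ubiquitin ligase gene on the far side of Tnr, by 0.50 ± 0.13 (adjusted p = 0.191 in limma). Gm31493 and Mrps14 had no tested probe. Tnc lies on chromosome 4, Tnxb on 17, Antxr1 on 6, Antxr2 on 5 and Cldn16 on 16, so none of the 6 genes shares a chromosome with Cldn16.

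Set side by side, 7 of the 9 tested probes were higher and 2 lower in KO than in WT, and 2 (Tnn ILMN_2896200 and Antxr1 ILMN_1226183) were among the 9 probes that limma called at an adjusted p under 0.05, which is 0.0394% of all tested. These genes were picked on that comparison, so nothing is read from the count. The call held in 5 of 23 alternative settings for Tnn and in 4 for Antxr1. Leaving out any single array other than WT 3, Het 1 or KO 3 ended the call of Tnn, and leaving out any other than KO 4 ended that of Antxr1. All KO kidneys were above all WT kidneys in 3 of the 9 (Tnn, 1 of Antxr1, Antxr2), against 3.68% of all tested probes. For Het above WT the count was 3 as well (the same probes), against 3.35%, both orders held in these 3, against 0.932%, and for KO above Het it was 2 (both of Antxr1), against 3.18%. These orders belong to the comparison on which the genes were picked or share its arrays, so nothing is read from their counts either.

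At an adjusted p under 0.05, limma called no member and no other probe (0%) in Het against WT, in KO against Het and in the departure from the midpoint. At an unadjusted p under 0.05 the members numbered 3, 3 and 1 of 9 in these comparisons, where 6.75%, 5.44% and 4.17% of all tested probes did so. The members with that p were Tnn, Antxr1 ILMN_1226183 and Antxr2 in Het against WT. They were Tnn and both Antxr1 probes in KO against Het, and ILMN_1229643 of Antxr1 in the departure. Het against WT and KO against Het share arrays with KO against WT, on which the genes were picked, and probes of 1 gene are not separate genes. Nothing is read from these counts.

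**Figure D4:**
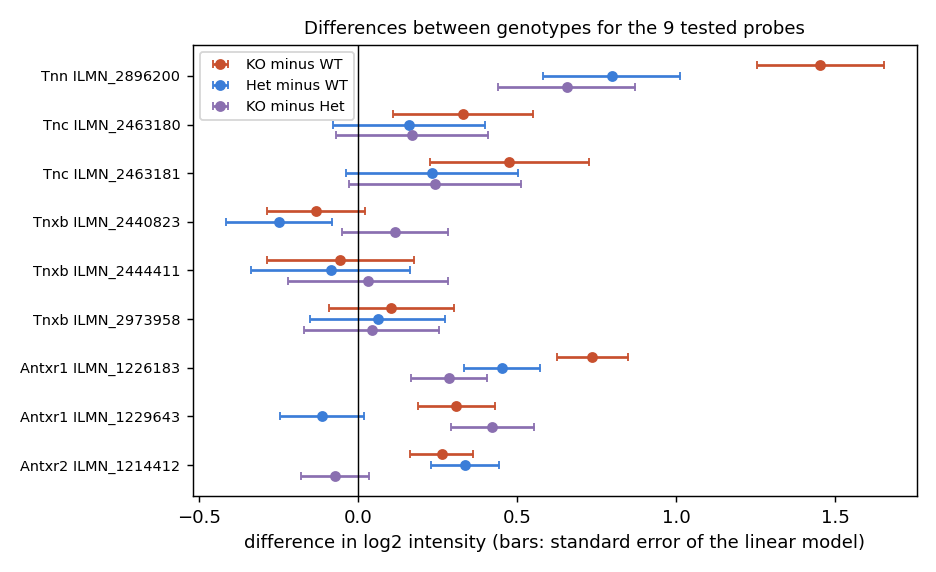
Differences in log2 intensity between genotypes for the 9 tested probes, with the standard error of the linear model as bars and a line at 0. KO minus WT runs from -0.13 in Tnxb to 1.45 in Tnn, and in Antxr1 ILMN_1229643 KO minus Het (0.42) exceeds KO minus WT (0.31).

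The KO minus WT differences were also taken within each slide. They were 0.75 on slide 1 and 0.72 on slide 2 for Antxr1 ILMN_1226183, 0.48 and 0.14 for ILMN_1229643, and 0.25 and 0.28 for Antxr2. For Tnn they were 1.83 and 1.08. The 2 Tnc probes gave 0.66 and 0.88 on slide 1 but 0.0033 and 0.067 on slide 2.

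Each slide held 2 WT and 2 KO kidneys. In Tnxb the difference was negative in all 3 probes on slide 1 (-0.32, -0.25 and -0.18) and positive in all 3 on slide 2 (0.053, 0.14 and 0.39). The test of the difference between slides did not pass the threshold for any of the 9 probes (adjusted p = 0.999 for each in limma), Tnn having the largest unadjusted contrast relative to its error at 0.75 ± 0.38.

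**Figure D5:**
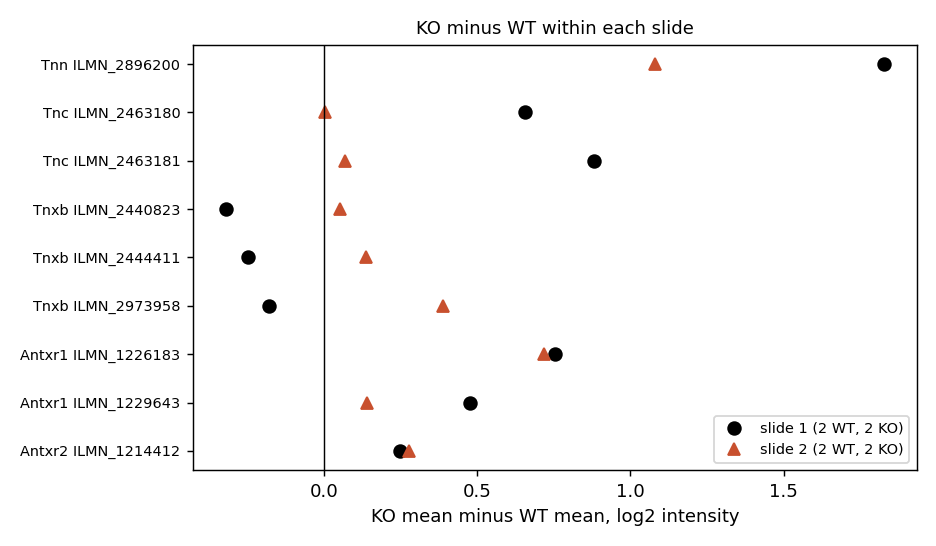
KO mean minus WT mean in log2 intensity within slide 1 (circles) and slide 2 (triangles), each from 2 WT and 2 KO arrays, for the 9 tested probes. The 2 symbols nearly coincide for Antxr1 ILMN_1226183 and Antxr2, and lie on opposite sides of 0 for the 3 Tnxb probes.

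The levels of other cell types' markers are given beside these differences, and limma called none of them. The mean log2 intensity of 6 measured adipose markers was 6.26 to 7.22 in WT, 6.06 to 7.91 in Het and 6.91 to 8.16 in KO kidneys, with 5 of the 6 higher in KO, and the highest kidneys were KO 1, Het 3 and KO 4. Fabp4 and Retn, which mark fat cells, did not pass the filter. Of the 6 measured, 2 were above background on all 11 arrays, Ucp1 and Cidea on 9, Lep on 3 and Plin1 on 1. The largest differences were those of Cidea (1.66 ± 0.76) and Ucp1 (1.62 ± 0.57), and Pck1 was lower in KO (-0.12 ± 0.39). Below, adipose-rich means only highest in this marker mean. Without KO 1, Het 3 and KO 4, a choice made after the data were seen, KO minus WT was 1.17 for Tnn and 0.84 for Antxr1 ILMN_1226183.

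Markers of the distal convoluted tubule (3 measured, all higher in KO) read 11.56 to 11.74 in WT, 11.45 to 11.87 in Het and 12.01 to 12.24 in KO kidneys. Markers of collecting duct principal cells (4 of 5 higher in KO) read 8.68 to 9.22, 8.75 to 9.13 and 9.01 to 9.62, and markers of the urothelium (6 of 6 higher in KO) 6.49 to 7.14, 6.50 to 7.51 and 6.56 to 7.53. All 4 measured endothelial markers were higher in KO (8.72 to 9.01 in WT and 8.79 to 9.23 in KO kidneys), as was the 1 measured adrenal marker (4.5 to 5.19 and 4.90 to 5.44). That adrenal marker, Cyp11a1, was above background on only 4 of the 11 arrays. The adrenal markers Cyp11b1, Cyp21a1, Star and Hsd3b1 did not pass the filter. The 2 measured leukocyte markers, Cd3e and Lyz2, and the 2 measured blood markers were lower in KO. Calb1 of the distal convoluted tubule, Kdr of the endothelium, and Ptprc and Itgam of the leukocytes did not pass the filter.

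Over the 11 arrays Tnn correlated with the collecting duct markers at 0.74, with the urothelial at 0.57, with the adipose at 0.54 and with the leukocyte markers at -0.80. After the genotype means were taken out the values were 0.54, 0.59, 0.38 and -0.44. With the distal convoluted tubule markers Tnn correlated at 0.62 and with the adrenal marker at 0.43, but within genotype at -0.23 and -0.44. The WT values of Tnn in these correlations were not above background, and only 2 of the 6 adipose markers were above it on all arrays. Antxr1 ILMN_1226183 correlated at 0.71 with the adrenal marker (0.53 within genotype), at 0.14 with the urothelial markers (-0.70) and at 0.25 with the adipose markers (-0.54). The adrenal marker was above background on only 4 of the 11 arrays, so correlations with it rest mostly on background values. These are descriptions of arrays that share slides and normalization, and the part of these cell types in the differences of Tnn and Antxr1 was not tested.

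Fibroblasts and pericytes are the usual makers of tenascins, and 2 of their 8 measured markers were higher in KO. Their mean was 7.92 to 8.08 in WT, 7.54 to 7.97 in Het and 7.59 to 8.15 in KO kidneys, and the groups overlapped. Smooth muscle markers (3 of 5 higher in KO) read 7.12 to 7.52, 7.04 to 7.96 and 6.95 to 7.78. None of the measured markers of skeletal muscle or of peripheral nerve and glia passed the filter on dim probes.

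Partners of the tenascins and receptors were examined as 5 lists, each with 1 probe per gene, beside a median of 0.0024 over all 12179 genes, of which 50.5% were higher in KO. None of their genes passed the threshold in any of the comparisons. Of 18 tenascin receptors and matrix ligands, 10 were higher in KO (median 0.14). The smallest p were those of Itga8, an integrin subunit that binds tenascins (0.52 ± 0.15, adjusted p = 0.217 in limma, all KO above all WT), Sdc4, a syndecan that binds fibronectin (0.46 ± 0.21), and Tlr4, a receptor of innate immunity that tenascin-C can activate (0.22 ± 0.12). The WT mean of Itga8, 5.09, lay among the lowest levels above background (5.07 to 5.19).

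Of 20 ligands and partners of the anthrax toxin receptors, 9 were higher in KO (median -0.02). Lamb2, a laminin chain of basement membranes, differed by 0.43 ± 0.11 (adjusted p = 0.192 in limma, all KO above all WT), Col4a2, a chain of type IV collagen, by 0.27 ± 0.12, and the kinase gene Src by 0.26 ± 0.14. Of 9 other matricellular proteins, 5 were higher (median 0.14), among them Smoc1 (0.66 ± 0.25), Sparcl1 (0.46 ± 0.16) and the cartilage protein Comp (0.46 ± 0.21).

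Growth factors, receptors and transcription factors known to act upstream of tenascins were higher in KO for 7 of 18 (median -0.02). Tgfb3, a transforming growth factor, differed by 0.50 ± 0.14 (adjusted p = 0.212 in limma, all KO above all WT), Smad3, which carries its signal, by -0.26 ± 0.12, and Pdgfrb, a receptor of pericytes, by 0.21 ± 0.12. The WT mean of Tgfb3, 4.92, lay under the lowest levels above background (5.07 to 5.19), so its difference starts from a level near the floor. The medians of this list and of the receptor partners had no settled sign. They kept it in only 16 and 15 of 23 alternative settings, reached 0.024 in each when 1 array was left out, and were 0.10 and 0.14 with a median shift per array, which also moved the median of all genes to 0.11.

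Of 13 matrix proteases and inhibitors, 11 were lower in KO (median -0.17) and 12 lower in Het (median -0.22). The KO median stayed negative in all 23 alternative settings, between -0.25 and -0.066, and was -0.096 without WT 1 and -0.11 without WT 2. Timp1, an inhibitor of metalloproteinases, differed by -0.57 ± 0.17 between KO and WT (adjusted p = 0.218 in limma), the stromelysin gene Mmp3 by -0.41 ± 0.20 and Plau, the urokinase gene, by -0.25 ± 0.12. The KO mean of Timp1, 5.14, lay among the lowest levels above background (5.07 to 5.19). The Het and KO means of Mmp3, 4.72 and 4.82, lay under them, so both differences end near the floor. The comparisons share the WT arrays, so their medians are not separate evidence.

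The genes whose levels followed Tnn most closely over the 11 arrays, among 12174 searched, were Fubp3 (r = 0.94), Slc35c2 (r = 0.94), Cab39l (r = 0.93), Borcs7 (r = 0.93) and Ptges (r = 0.92). After the genotype means were taken out the correlations were 0.81, 0.72, 0.59, 0.75 and 0.67. The WT values of Tnn that enter both sets of correlations were not above background. Ptges, which makes prostaglandin E2, read 6.73 ± 0.19 (SD, n = 4) in WT and 7.71 ± 0.18 (n = 4) in KO kidneys, and Cab39l, a partner of the kinase LKB1, 9.70 ± 0.05 and 10.38 ± 0.19. Ptges was itself called in KO against WT (adjusted p = 0.0291 in limma), the comparison on which Tnn was picked.

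For Antxr1 the search used ILMN_1229643, the probe with the higher mean level, which is no ground for taking it as the better measure of the gene, and ILMN_1226183 was not searched. The closest were Tor4a (r = 0.98), Sfxn1 (r = 0.91), Ampd3 (r = 0.91), Cadps2 (r = 0.90) and Bcl10 (r = 0.90). Within genotype Tor4a still stood at 0.96. It read 7.92 ± 0.15 in WT (n = 4) and 8.22 ± 0.14 in KO kidneys (n = 4), so that it, too, had only a small difference. These are the highest of many correlations over few arrays and are given as a description.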

How the data were processed

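Total RNA of 11 kidneys was labelled as biotinylated cRNA, per the labels' protocols. Per the file headers, the deposited table gives each probe's linear intensity and detection p-value on every array, and the submitters' processing notes name BeadStudio without a version. A second deposited table holds the authors' normalized intensities and was used as an alternative. Groups come from the genotype labels, and each array is 1 labelled mouse. Intensities were background-corrected by normexp with negative controls inferred from the detection p (offset 16), then quantile normalized. Tests ran on log2 values of the deposited intensities so treated (R 4.3.3, limma 3.58.1, statmod 1.5.0). Deposited array medians ran from 70.3 to 76.6.

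Probes whose detection p was under 0.05 on 3 arrays or more were fitted with lmFit and eBayes, 1 mean per genotype over all 11 arrays, with two-sided p adjusted by Benjamini-Hochberg over the 22856 probes tested. The code was tested on simulated data. The number of arrays limits the precision. Probes were named through the platform annotation (34885 with 1 symbol, 18 with several, 10378 with none). Promoter windows are RefSeq's. The files name no genome build, and positions come from a GRCm38.p6 gene table.

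Members, gene lists and marker lists were chosen with earlier results of these data known. Named besides the members are the 3 genes of each list with the smallest p in KO against WT, since none passed the threshold, the 5 genes that correlate best with Tnn and with Antxr1, and chromosomal neighbours. Alternatives were other background, offset, scaling, filter, slide, age, sample and weighting choices, and the omission of each array. Sequences of probes and of proteins were not used here.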

Additional observations from a re-analysis of the deposited data

Results flagged for a closer look

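In the KO group, Antxr1 ILMN_1229643 read 7.096 in KO 2, apart from the other 3 kidneys at 6.86 to 6.90. The gap was 0.848 of the range of the group, above Dixon's 95% critical value for 4 samples. Of 18 groups of 4 examined this was the only such kidney, and chance gives about 1 in 20. Without KO 2 the KO minus WT difference of this probe stayed positive, within the 0.25 to 0.39 that omitting 1 array at a time gave.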

How the results depend on the processing

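KO minus WT of Tnn ILMN_2896200 (0.77 to 1.83) and Antxr1 ILMN_1226183 (0.44 to 0.84) kept its sign in all 23 alternatives. Their calls did not: the adjusted p in limma stayed under 0.05 in 5 alternatives for Tnn (range 0.00526 to 0.898) and in 4 for Antxr1 (0.0333 to 0.898). With the slide as a block it was 0.0505 and 0.0639, with postnatal day in the model 0.0922 and 0.099, and without background correction 0.0547 for both. Without one array, the Tnn call held only when WT 3, Het 1 or KO 3 was left out, and the Antxr1 call only when KO 4 was. Of the 9 probes called in KO against WT, the count became 4 with the slide as a block, 0 on slide 2 alone, with postnatal day or with only the genotypes compared, 14 with array weights, 4 without the 3 adipose-rich arrays (0 shared), and 0 to 15 without one array: 0 without WT 1, WT 2, Het 2 or KO 2, 1 without WT 4, 3 without Het 3 or KO 1 and 15 without WT 3. From 0 calls, Het against WT went to 1 on slide 1, 8 on slide 2 and 0 to 1 without one array. KO against Het went to 2 without background correction or with the authors' values, 6 on slide 1, 8 on slide 2 and 0 to 1 without one array, and the departure from the midpoint to 1 on slide 1 and 11 on slide 2. On slide 2 the Het group is the single array Het 3, assumed to vary like the other groups, so these 8, 8 and 11 calls rest on 1 kidney. The cause was not tested.

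Sign changes occurred in small differences. Het minus WT became, with a median shift, 0.011 for Tnxb ILMN_2444411 and 0.012 for Antxr1 ILMN_1229643 (0.097 on slide 1), and on slide 2 0.075 for ILMN_2444411 and -0.024 for ILMN_2973958. KO minus Het became -0.069 for ILMN_2440823 and -0.19 for ILMN_2973958 on slide 1, -0.13 and -0.19 for the Tnc probes on slide 2, and -0.044 for ILMN_2444411 with array weights. The departure of Het became, for the Tnc probes ILMN_2463180 and ILMN_2463181, 0.030 and 0.029 with a median shift, 0.13 and 0.22 on slide 2 and 0.055 and 0.061 with array weights, and 0.048 for the first without the adipose-rich arrays. It became -0.0063 (offset 50) and -0.014 (slide 1) for Tnn, -0.0017 (slide 2) for Antxr1 ILMN_1226183, 0.0063 (slide 2) for ILMN_2444411, and -0.018 (slide as a block) and -0.22 (slide 2) for ILMN_2973958. Without one array, the departure ran from -0.035 to 0.21 for Tnn, -0.11 to 0.10 and -0.12 to 0.14 for Tnc, and -0.18 to 0.028 and -0.13 to 0.14 for Tnxb ILMN_2444411 and ILMN_2973958, whose Het minus WT ran from -0.32 to 0.088 and -0.082 to 0.21 and KO minus Het from -0.094 to 0.20 and -0.10 to 0.18. For ILMN_2440823 KO minus Het ran from -0.0082 to 0.21.

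Of 819 recomputed member differences, 756 kept their sign. No paired analysis was possible because the labels carry no replicate numbers shared between genotypes. Dim probes limit what can be said of Tnr, and Tnn has only a bound in WT.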
